A study of Mus musculus with 12 samples.

Results

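MLT elements are old long terminal repeat (LTR) retrotransposons of the ERVL-MaLR family. They were followed here in RNA of Mael-/- mouse testes and in RNA that co-immunoprecipitated with ORF1p, the RNA-binding protein of the retrotransposon LINE-1 (L1). The members were chosen by name, as the subfamilies and single copies of ERVL-MaLR whose name starts with MLT or MST. The rule gave 56 of 1528 repeat subfamilies and 13100 of 781935 repeat loci. Of the subfamilies, 29 were LTRs with 12434 loci, and 27 were internal parts, marked -int, with 666 loci. No MST name met the rule, so MST elements were not analysed here. The name MLT also occurred in 30 subfamilies of other families, among them 10 MLT2 subfamilies of ERVL, which were left out.

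All 12 libraries came from testes of C57BL/6 mice of about 3 months that lacked Mael, a piRNA pathway gene, so the data hold no Mael-positive control. TOTAL was the clarified testis extract with EDTA, which takes ribosomes apart. INPUT was a pool of sucrose gradient fractions of that extract. IP was the RNA that beads with anti-ORF1p antibody recovered from INPUT, and BO (beads only) was the RNA recovered without an antibody. Each group had 3 libraries, which the labels call biological replicates. These are bulk samples of a mixed tissue, so fewer cells of a type and less RNA per cell cannot be told apart.

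MaLR elements are nonautonomous LTR retrotransposons that depended on proteins supplied by other elements. MLT subfamilies are their oldest branch and are shared by placental mammals, whereas the ORR1 and MT subfamilies of the same family arose later, in rodents. An intact element has an LTR at each end and an internal part between them, but most copies today are single LTRs left by recombination, worn down by mutation and often lying inside the introns or transcripts of other genes. Reads on such copies can come from longer host transcripts. ORF1p coats L1 RNA in cis and also binds other RNAs, and BO measures what sticks to the beads without the antibody.

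The deposited subfamily values were normalized read counts, scaled so that the 75th percentile over subfamilies was 484.3 in each library. The reads behind them numbered 6021800 to 7282171 per library in TOTAL, 3045169 to 3880641 in INPUT, 1712212 to 3512997 in BO and 1384904 to 2003193 in IP. Between 15087 and 37485 of these per library fell on MLT subfamilies. In BO replicate 3, rRNA repeats took 54.3% of the reads, against 16.3% at most in the other libraries. In TOTAL, 7SL RNA took 38.2% to 51.6%. Among marker genes in the authors' TOTAL means, the 5 spermatocyte markers ranged from 143 to 9433, the 5 Leydig cell markers from 1744 to 29894 and the 5 Sertoli cell markers from 150 to 10791. The 5 spermatid markers ranged from 11.7 to 39.3, so genes of the cells that follow meiosis were nearly unread. Between groups the marker lists moved. The spermatocyte markers summed to 7351 in BO, 18533 in INPUT and 18543 in TOTAL, and to 92262, 120953 and 120260 in IP in the same tables, with 5 of 5 higher in IP in each. The Leydig cell markers summed to 77573 in TOTAL and 15226 in IP, with 5 of 5 lower, but to 5666 in BO and 11645 in IP, with 5 of 5 higher. The Sertoli cell markers summed to 17840 in TOTAL and 4124 in IP, with 5 of 5 lower, and to 8290 in BO and 3154 in IP, with 3 of 5 lower. The spermatogonia markers summed to 6978 in TOTAL and 3253 in IP, with 5 of 5 lower. In the table with BO they summed to 5816 in BO and 2488 in IP, with 2 of 5 lower. The 4 macrophage markers present summed to 4855.5 in TOTAL and 1122 in IP, with 4 of 4 lower, but 395 in BO and 859 in IP. The spermatid markers summed to 116.4 in TOTAL and 3.0 in IP. The part of these RNAs in the results below was not tested. Mael itself had an authors' mean of 0.65 in TOTAL and 0 in IP.

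As a whole, MLT RNA had nearly the same normalized value in all 4 groups. This scaling sets the upper quartile over subfamilies equal in every library, so these values cannot show whether the amount of MLT RNA changed. The summed normalized value was 22420 ± 599 (SD, n = 3) in TOTAL, 22828 ± 528 in INPUT, 24042 ± 617 in BO and 23106 ± 818 in IP. The share of recovered reads was not constant. It was 0.342% to 0.483% in TOTAL, 0.782% to 0.798% in INPUT, 0.538% to 1.10% in BO and 1.09% to 1.23% in IP. The total holds 7SL and rRNA reads, whose part in this share was not tested. LTRs carried most of the value, 93.8% to 94.8% per library in TOTAL and 94.1% to 94.4% in IP. In BO they carried 91.1% to 91.8%, and the internal parts held the other 8.18% to 8.94%.

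The 8 most abundant subfamilies were all LTRs. MLT1A0, with 1555 loci, had a normalized value of 2177, 2379 and 2430 in TOTAL, 2423, 2417 and 2443 in INPUT, 2600, 2754 and 2739 in BO and 2293, 2444 and 2620 in IP. Its IP values overlapped those of every other group, and none of its 5 comparisons passed the test. MLT1B, MLT1C and MLT1J, with 12-library means of 2358, 1790 and 811, did not pass any of the 5 either. MLT1D, with a mean of 2412, was higher in BO than in INPUT (log2 fold change 0.29, SE 0.06, adjusted p = 0.00432 by limma). The other abundant subfamilies, MLT1K, MLT1A1 and MLT1A, each changed in at least 2 comparisons and are described below. The 6 LTR subfamilies named MLT1A to MLT1D together held 50.1% to 53.3% of all MLT value in every library.

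The comparisons asked which subfamilies differed between IP and each other group, between INPUT and TOTAL, and between BO and INPUT. Values were compared as log2(normalized value + 1) with limma over the 1180 subfamilies that had a mean of at least 10. Of the 56 members, 46 passed this filter: all 29 LTRs and 17 internal parts. The comparisons with IP share its libraries and are set side by side, not as independent results.

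Between IP and BO, 5 of the 46 MLT subfamilies rose in IP and 8 fell, by limma at an adjusted p under 0.05. Of all subfamilies tested, 11.3% were higher and 23.2% lower. The median log2 fold change of the members was -0.06, beside -0.12 over all subfamilies, and they moved to 0.07 and -0.001 when libraries were scaled by the median of ratios. Under that scaling the members split into 9 higher and 5 lower, and with library totals into 4 higher and 1 lower. With library totals the median was 0.44 for the members and 0.36 for all subfamilies. The log2 fold change lay between -0.5 and 0.5 in 32 of the 46. MLT1G3-int, MLT1G3, MLT1D-int and MLT1A0-int also had a log2 fold change above 1 or below -1, 4 of 46 members against 8.9% of all subfamilies.

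Against INPUT, 4 members rose in IP and 4 fell, where 11.0% of all subfamilies were higher and 16.7% lower. The median log2 fold change was 0.004 for the members and -0.06 for all. Scaling by the median of ratios gave 7 higher and 3 lower, and library totals 3 higher and none lower. The medians of members and of all subfamilies were then 0.085 and 0.015 with the median of ratios, and 0.55 and 0.47 with library totals. MLT1G3 and MLT1G3-int were the 2 past a log2 fold change of 1, beside 6.1% of all subfamilies. Against TOTAL, 5 members rose and 3 fell, where 10.2% of all subfamilies were higher and 12.5% lower. The median was 0.01 for the members and -0.05 for all. MLT1G3 alone passed a log2 fold change of 1, beside 6.36% of all subfamilies. With library totals 45 members were higher and none lower. On that scaling the median log2 fold change was 1.53 for the members and 1.49 for all subfamilies.

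Between INPUT and TOTAL, 1 member rose and none fell by limma, where 0.847% of all subfamilies were higher and 0.847% lower; no member and 0.339% of all subfamilies passed a log2 fold change of 1 in either direction. At an unadjusted p under 0.05, 4 members were higher and 3 lower, and edgeR on the recovered reads called 1 higher and 0 lower. With library totals 37 members were higher and none lower, 26 of them past a log2 fold change of 1. On that scaling the median log2 fold change was 1.03 for the members and 1.03 for all subfamilies. Between BO and INPUT, 7 members rose in BO and 2 fell, where 17.2% of all subfamilies were higher and 11.7% lower. The median log2 fold change was 0.02 for the members and 0.03 for all. MLT1E2-int and MLT1D-int passed a log2 fold change of 1, beside 5.42% of all subfamilies. Library totals left 2 higher and none lower. The calls of MLT1-int, MLT1A0-int, MLT1A1, MLT1D, MLT1E1A, MLT1H1 and MLT1N2 were lost (adjusted p = 0.266 to 0.888 by limma), but their log2 fold changes stayed close, at 0.60, 0.77, -0.20, 0.34, 0.62, 0.53 and -0.52 beside 0.55, 0.72, -0.25, 0.29, 0.57, 0.48 and -0.56 before.

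The members were also split by element part. In IP against BO, the log2 fold changes of the 29 LTRs ran from -0.52 to 1.16 with a median of -0.01, and 4 rose and 3 fell. Those of the 17 internal parts ran from -2.40 to 1.31 with a median of -0.55, and 1 rose and 5 fell. The difference between these sets was not tested across subfamilies. Of the 49 other MaLR subfamilies, ORR1 and MT, 3 rose and 8 fell in IP against BO, with a median of -0.04. In this comparison 11.3% of all subfamilies tested were higher and 23.2% lower. The shares were 13.8% and 10.3% of the LTRs, 5.88% and 29.4% of the internal parts and 6.12% and 16.3% of the other MaLR subfamilies.

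**Figure D1:**
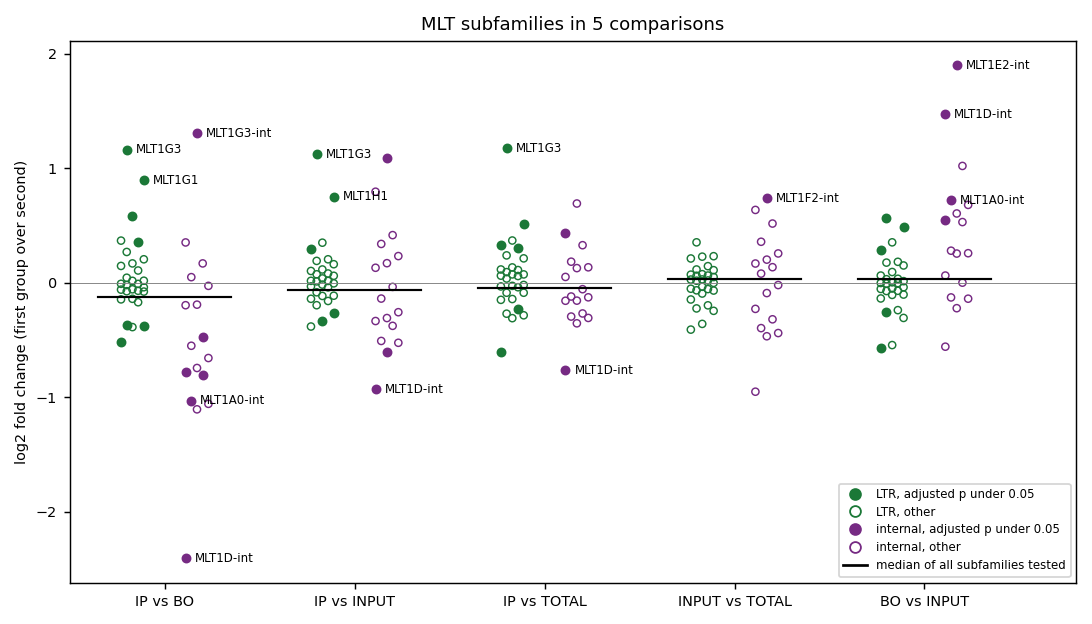
Log2 fold change of the 46 tested MLT subfamilies in the 5 comparisons, first group over second, with LTRs in green and internal parts in purple. Filled points had an adjusted p under 0.05 by limma, and black lines are the medians of all 1180 subfamilies; most LTRs lie near 0, MLT1G3 lies above 1 in all 3 comparisons with IP, and MLT1D-int lies at -2.40 in IP against BO.

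MLT1G3, an LTR subfamily with 167 loci, had the largest rise in IP among the members called against INPUT and against TOTAL. Against BO it came after MLT1G3-int. Its normalized value was 1187, 1187 and 1008 in IP. It was 474, 516 and 515 in BO, 390, 552 and 633 in INPUT, and 436, 536 and 524 in TOTAL. Every IP library exceeded all 9 others, while the other groups overlapped one another. The value in IP was 2.24-fold that in BO (log2 fold change 1.16, SE 0.15, adjusted p = 0.000137 by limma). Against INPUT it was 2.18-fold (log2 1.13, SE 0.15, adjusted p = 0.000268 by limma) and against TOTAL 2.26-fold (log2 1.18, SE 0.15, adjusted p = 0.000253 by limma). Between 321 and 1033 reads per library lay behind these values.

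MLT1G3-int, the internal part that carries the same subfamily name, had 11 loci and far fewer reads, 25 to 98 per library. Its normalized value was 51.5, 87.1 and 95.6 in IP, 18.1, 36.4 and 40.1 in BO, 40.4, 36.7 and 28.7 in INPUT, and 47.0, 45.0 and 46.8 in TOTAL. IP again exceeded the other groups without overlap, although IP replicate 1 lay close to TOTAL. The rise over BO was 2.48-fold (log2 1.31, SE 0.31, adjusted p = 0.00569 by limma) and over INPUT 2.13-fold (log2 1.09, SE 0.31, adjusted p = 0.0205 by limma). Against INPUT the call was lost without INPUT replicate 3, IP replicate 2 or IP replicate 3 (log2 0.95, 0.99 and 0.92, adjusted p = 0.0732, 0.0733 and 0.0722 by limma). The difference from TOTAL did not pass the test (log2 0.69, SE 0.31, adjusted p = 0.129 by limma).

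MLT1H1 had 288, 287 and 292 in IP, above 231, 267 and 223 in BO, 141, 197 and 180 in INPUT and 199, 213 and 196 in TOTAL. The 3 IP libraries lay within a narrow range and stood above all others. The rise passed the test against INPUT (log2 0.75, SE 0.13, adjusted p = 0.00102 by limma) and TOTAL (log2 0.51, SE 0.13, adjusted p = 0.0129 by limma), but not against BO (log2 0.27, SE 0.13, adjusted p = 0.116 by limma). BO was itself higher than INPUT, by 0.48 on the log2 scale (SE 0.13, adjusted p = 0.0118 by limma), and by 0.41 without BO replicate 2 (adjusted p = 0.0509 by limma).

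MLT1A, with 700 loci, showed a small rise in IP over each group. It had 1186, 1252 and 1351 in IP, 950.5, 980 and 1033 in BO, 925, 1109 and 1048 in INPUT and 927, 1085 and 1005 in TOTAL. IP did not overlap any other group. The log2 fold changes were 0.35 over BO, 0.30 over INPUT and 0.33 over TOTAL (SE 0.09 each, adjusted p = 0.00853, 0.0259 and 0.0211 by limma). The call over INPUT was lost without INPUT replicate 1 or 3 (log2 0.23 and 0.32) and without IP replicate 2 or 3 (0.31 and 0.25), with an adjusted p of up to 0.102 by limma. The call over TOTAL was lost without TOTAL replicate 1 or 3 (0.27 and 0.33) and without IP replicate 2 or 3 (0.33 and 0.28), with an adjusted p of up to 0.0738 by limma, and with only the compared groups fitted (adjusted p = 0.0558 by limma). With library totals the rises over BO and INPUT were larger but not called (0.85 and 0.84, adjusted p = 0.0688 and 0.0676 by limma).

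Other members rose in only some comparisons. MLT1G1 had 622, 519 and 507 in IP against 198, 390 and 329 in BO, a log2 fold change of 0.89 (SE 0.20, adjusted p = 0.0042 by limma). INPUT had 381, 427 and 484 and TOTAL 405, 434 and 432. All 3 IP libraries lay above the other 9, and BO overlapped INPUT. IP did not pass the test against INPUT (log2 0.35, SE 0.20, adjusted p = 0.217 by limma) or TOTAL (log2 0.37, SE 0.20, adjusted p = 0.218 by limma), nor BO against INPUT (log2 -0.54, SE 0.20, adjusted p = 0.061 by limma). In MLT1N2 the value was 175, 164 and 157 in IP, 113, 111 and 106 in BO, 168, 148 and 175 in INPUT and 162, 135 and 155 in TOTAL, so that only BO stood apart. It was 0.58 higher in IP than in BO (SE 0.11, adjusted p = 0.00179 by limma) and 0.57 lower in BO than in INPUT (log2 -0.57, SE 0.11, adjusted p = 0.00312 by limma). MLT-int rose over TOTAL only (log2 0.44, SE 0.11, adjusted p = 0.0131 by limma), from 213, 212 and 199 to 275, 260 and 312.

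Several internal parts were highest in the beads-only control. MLT1D-int, with 27 loci, had 504, 639 and 502 in BO. It had 194, 180 and 215 in INPUT, 187, 173 and 162 in TOTAL, and 95.6, 98.6 and 113 in IP. BO lay above and IP below all other libraries, and INPUT and TOTAL overlapped. The value in BO was 2.78-fold that in INPUT (log2 1.47, SE 0.13, adjusted p = 8.95e-06 by limma), and that in IP was 0.189-fold that in BO (log2 -2.40, SE 0.13, adjusted p = 1.52e-07 by limma). MLT1D-int was also lower in IP than in INPUT (log2 -0.93, SE 0.13, adjusted p = 0.000259 by limma), a call lost with library totals (log2 -0.39, adjusted p = 0.412 by limma). Its fall against TOTAL (log2 -0.76, SE 0.13, adjusted p = 0.00118 by limma) turned into a rise of 0.78 when libraries were scaled to their totals. The reads behind it numbered 65 to 809 per library.

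MLT1A0-int had 220, 204 and 194 in BO, 134, 127 and 113 in INPUT, 81.1, 102 and 110 in TOTAL and 100, 90.9 and 111 in IP. BO stood above the other 9 libraries, while IP and TOTAL overlapped. It rose in BO over INPUT by 0.72 (SE 0.14, adjusted p = 0.00265 by limma) and was 1.03 lower in IP than in BO (log2 -1.03, SE 0.14, adjusted p = 0.000169 by limma). MLT1-int had 119, 116 and 125 in BO and 61.8, 76.8 and 67.3 in IP, a log2 fold change of -0.80 (SE 0.15, adjusted p = 0.00117 by limma). MLT1F-int fell from 223, 243 and 184 in BO to 132, 134 and 110 in IP (log2 -0.78, SE 0.18, adjusted p = 0.00563 by limma). For MLT1F-int, INPUT had 203, 180 and 161 and TOTAL 199, 145 and 119, and both overlapped BO. Its BO value did not pass the test against INPUT (log2 0.26, SE 0.18, adjusted p = 0.349 by limma). With library totals these 3 falls were not called, at -0.54 for MLT1A0-int, -0.31 for MLT1-int and -0.29 for MLT1F-int (adjusted p = 0.319, 0.601 and 0.632 by limma).

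MLT1E2-int showed the largest rise of BO over INPUT, 1.90 on the log2 scale (SE 0.42, adjusted p = 0.00534 by limma), but rested on 9 to 76 reads per library. It had 47.4, 63.8 and 22.4 in BO, 8.46, 9.80 and 12.9 in INPUT, 32.2, 19.8 and 13.8 in TOTAL and 13.2, 25.6 and 18.5 in IP. BO and INPUT did not overlap, but BO overlapped TOTAL and IP. Among LTRs, MLT1E1A rose in BO over INPUT as well, from 339, 358 and 367 to 501, 507 and 574 (log2 0.57, SE 0.10, adjusted p = 0.00111 by limma). It had 453, 396 and 371 in IP, lower than BO (log2 -0.38, SE 0.10, adjusted p = 0.0088 by limma) and higher than TOTAL, which had 329, 345 and 312 (log2 0.30, SE 0.10, adjusted p = 0.0408 by limma). The call over TOTAL was lost without any of the 3 TOTAL replicates, IP replicate 1 or IP replicate 2, with values of 0.22 to 0.34, as it was with only the compared groups fitted (adjusted p = 0.101 by limma). The fall against BO was lost with the median of ratios (log2 -0.25, adjusted p = 0.098 by limma) and with edgeR (log2 -0.24, adjusted p = 0.107), and turned into a rise of 0.12 with library totals.

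**Figure D2:**
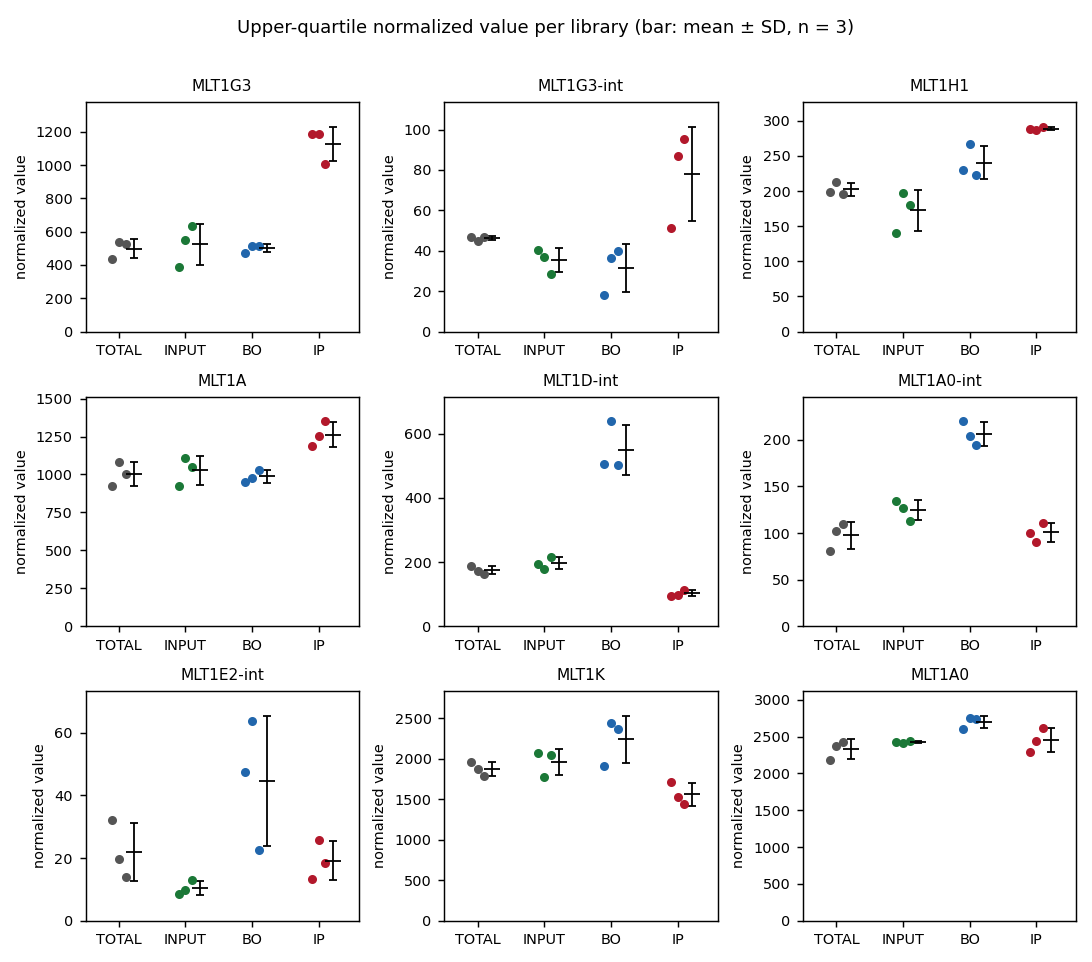
Upper-quartile normalized value of 9 MLT subfamilies in each library of the 4 groups, with points for libraries and a bar for the mean ± SD (n = 3); every axis starts at 0. MLT1G3 lies at 1008 to 1187 in IP and at 390 to 633 elsewhere, MLT1D-int lies at 502 to 639 in BO and at 95.6 to 113 in IP, and MLT1A0 stays between 2177 and 2754 in all libraries.

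Few abundant LTRs were lower in IP. MLT1K had 1715, 1526 and 1442 in IP, 1907, 2445 and 2372 in BO, 2073, 1780 and 2044 in INPUT and 1964, 1875 and 1794 in TOTAL. All 3 IP libraries lay below the other 9. It fell against BO (log2 -0.52, SE 0.11, adjusted p = 0.00225 by limma), but with library totals the difference was -0.02 (adjusted p = 0.968 by limma). The fall against INPUT (log2 -0.33, SE 0.11, adjusted p = 0.0328 by limma) became a rise of 0.21 with library totals. It was lost with the median of ratios (log2 -0.25, adjusted p = 0.114 by limma) and with edgeR (log2 -0.28, adjusted p = 0.0851), and without INPUT replicate 1 or 3 (log2 -0.29 and -0.30) or IP replicate 2 or 3 (-0.32 and -0.28). MLT1A1 was lower in both bead samples. It had 1731, 1654 and 1816 in IP and 1719, 1794 and 1716 in BO, against 2063, 2029 and 2128 in INPUT and 2024, 2022 and 2046 in TOTAL. IP and BO overlapped each other and lay below both other groups. The log2 fold change was -0.26 for IP against INPUT (SE 0.06, adjusted p = 0.00669 by limma), -0.23 for IP against TOTAL (SE 0.06, adjusted p = 0.0172 by limma) and -0.25 for BO against INPUT (SE 0.06, adjusted p = 0.00736 by limma). With library totals the first 2 turned into rises of 0.29 and 1.32, and the call against TOTAL was lost without IP replicate 2 (log2 -0.20) or TOTAL replicate 3 (-0.22), with the median of ratios (-0.17, adjusted p = 0.0515 by limma) and with only the compared groups fitted (adjusted p = 0.0795 by limma).

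MLT1F2-int, with 13 loci, was the member that changed between INPUT and TOTAL. It had 209, 190 and 218 in INPUT and 123, 139 and 109 in TOTAL, a log2 fold change of 0.74 (SE 0.13, adjusted p = 0.0167 by limma) that was lost without TOTAL replicate 3 (log2 0.65) or INPUT replicate 3 (0.69). In BO it had 200, 177 and 188, and in IP 159, 120 and 129. IP was lower than INPUT (log2 -0.60, SE 0.13, adjusted p = 0.0058 by limma) and than BO (log2 -0.47, SE 0.13, adjusted p = 0.0162 by limma), and with library totals these became -0.06 and a rise of 0.018, neither called. The fall against BO was also lost with the median of ratios (log2 -0.35, adjusted p = 0.0828 by limma), with edgeR (log2 -0.35, adjusted p = 0.0766) and without BO replicate 1 (-0.43) or IP replicate 2 (-0.39). MLT1E was lower in IP, with 159, 174 and 208, than in TOTAL, with 254, 272 and 292 (log2 -0.60, SE 0.16, adjusted p = 0.02 by limma). This call was lost without IP replicate 1 or 2 (log2 -0.52 and -0.58) and without TOTAL replicate 2 or 3 (-0.60 and -0.55), and it turned to a rise of 0.94 with library totals.

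Ratios within a library need no scaling between libraries. The ratio of internal to LTR values of MLT was 0.0969, 0.0982 and 0.0891 in BO, 0.0748, 0.0668 and 0.0645 in INPUT, 0.0661, 0.0596 and 0.0547 in TOTAL, and 0.0593, 0.0603 and 0.0624 in IP. All 3 BO libraries lay above the other 9, and IP and TOTAL overlapped. The log2 ratio was 0.64 lower in IP than in BO (difference -0.64, exact permutation p = 0.1, adjusted 0.167), and 0.47 higher in BO than in INPUT (exact permutation p = 0.1, adjusted 0.167). With 3 libraries against 3, an exact two-sided p cannot go below 0.1. Without MLT1D-int, the most abundant internal part, the differences shrank to -0.32 and 0.23, and in both cases the groups still did not overlap. As medians over subfamilies in place of sums, they were -0.14 and 0.46.

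MLT RNA stood in nearly constant proportion to the rest of its family. Its sum was 0.163 to 0.175 of that of the other MaLR subfamilies in TOTAL, 0.161 to 0.169 in INPUT, 0.168 to 0.173 in BO and 0.166 to 0.170 in IP, and all 4 groups overlapped. The largest difference in the log2 ratio was 0.05, between BO and INPUT (exact permutation p = 0.2, adjusted 0.5). As medians over subfamilies the differences were larger, 0.24 between BO and INPUT and -0.20 between IP and BO (exact permutation p = 0.2 each). MIR elements are old SINEs that served as a second reference, and their age relative to MLT was not analysed here. The MLT to MIR ratio was 0.655 to 0.692 in IP, 0.631 to 0.648 in BO, 0.616 to 0.641 in TOTAL and 0.544 to 0.580 in INPUT. IP lay above and INPUT below every other group without overlap. The log2 difference was 0.26 between IP and INPUT and 0.08 between IP and BO (exact permutation p = 0.1 each, adjusted 0.1). As medians over subfamilies, the difference from BO turned to -0.13 and that from TOTAL from 0.09 to -0.09. The reference itself moved and held only 4 MIR subfamilies. In IP against INPUT all 4 were called lower by limma, beside 16.7% of all subfamilies. Their median log2 fold change there was -0.23, beside 0.004 for the MLT members. It was -0.10 against BO and -0.04 against TOTAL, beside -0.06 and 0.01 for the members.

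**Figure D3:**
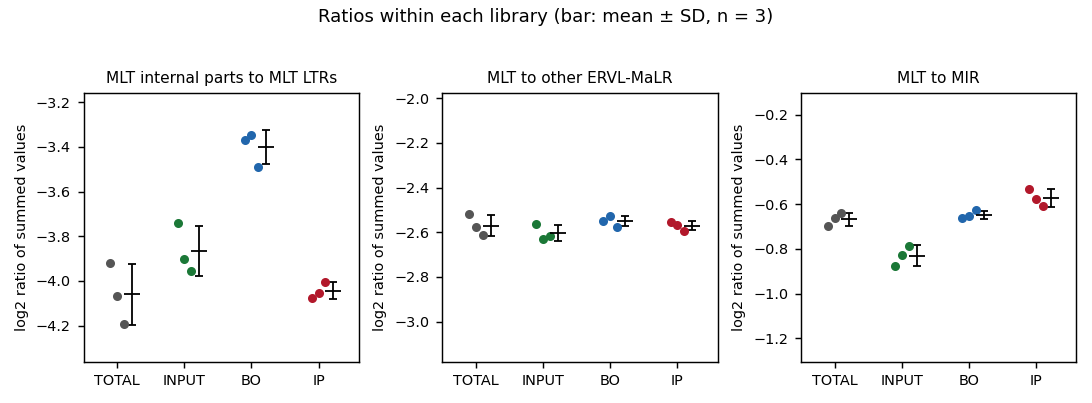
Log2 ratios of summed normalized values in each library, for MLT internal parts to MLT LTRs, MLT to other ERVL-MaLR and MLT to MIR, with a bar for the mean ± SD (n = 3) and the same span on each axis. BO lies highest for internal parts, the groups overlap against other MaLR, and INPUT lies lowest against MIR.

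Single copies were read from the authors' mean of each group in 3 tables, each comparing IP with another group and each normalized separately. The tables hold no value per library, so no spread or test was computed here for a locus, and the depth behind these means is unknown. The authors' own standard errors and p-values for loci were not used. Loci are identified by subfamily and an index number, without coordinates, so their position and host genes were not analysed here. Ratios of single copies and of their sums are given with 1 added to both means or sums. Most MLT loci had low means, as did most repeat loci. In the table of IP and TOTAL, 4502 of 13100 MLT loci (34.4%) were listed at 0 in both groups and 11569 (88.3%) had a mean under 1 over both, beside 30.2% and 83.6% of all repeat loci. A mean of at least 10 was reached by 49 MLT loci there, 54 in the table of IP and BO and 54 in that of IP and INPUT, 4 of them internal parts in each table. This was 0.374%, 0.412% and 0.412% of MLT loci, beside 0.791%, 0.711% and 0.85% of all repeat loci. The mean was taken over the 2 groups compared. A locus low in 1 of them, such as MLT1H1_16 with 4.2 in TOTAL, passed only because it was high in the other. The filter thus favours large ratios, for MLT and for all repeat loci, and the counts and named ratios below are descriptions.

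Of the 54 MLT loci in the table of IP and BO, 9 had an IP mean at least 2 times that of BO, and 26 had at most 0.5 times, both as means plus 1. Over all repeat loci past the filter the shares were 17.2% and 47.7%. Divided by the median ratio of the 5557 repeat loci past the filter, 0.536, the split became 16 and 15, beside 30.0% higher and 25.7% lower of all those loci on the same scale. Of the 54 in the table of IP and INPUT, 16 were at least 2 times higher and 9 at most 0.5 times, beside 22.1% and 31.2%, and after centering 18 and 5, beside 26.7% and 25.1%. Of the 49 in the table of IP and TOTAL, 16 were at least 2 times higher and 5 at most 0.5 times, beside 24.1% and 24.3%. Over the MLT loci past the filter, the median ratio of IP was 1.24 to TOTAL, 1.14 to INPUT and 0.518 to BO. Over all repeat loci past the filter it was 1.007, 0.841 and 0.536.

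The locus MLT1G3_737 stood far above every other MLT copy in IP. Its authors' mean was 632.4 in IP and 108.6 in TOTAL, 635.3 in IP and 133.0 in INPUT, and 484.6 in IP and 87.3 in BO, each pair from its own table. The ratio of IP was 5.78 to TOTAL, 4.75 to INPUT and 5.5 to BO. In the table of IP and TOTAL, this copy made up 7.97% of the IP sum over 13100 MLT loci, and 82.6% of the IP sum of the 167 MLT1G3 loci. It also led the MLT1G3 loci in the other groups, with 50.9% of their sum in TOTAL, 56.5% in INPUT and 48.1% in BO. For MLT1G3 as a whole, the summed locus means in IP were 3.58 times those in TOTAL, 3.26 times those in INPUT and 3.22 times those in BO. Without MLT1G3_737 they were 1.27, 1.31 and 1.09 times. This copy was left out because its own ratio was high, so the lower values are a description. A second copy, MLT1G3_246, had 42.8 in IP and 14.1 in TOTAL.

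The internal part had a similar leading copy. MLT1G3-int_15 had 51.4 in IP and 18.7 in TOTAL, and 39.5 in IP and 9.8 in BO, and held 78.4% of the summed IP means of the 11 MLT1G3-int loci. In MLT1H1, the copy MLT1H1_16 went from 4.2 in TOTAL to 50.9 in IP, a ratio of 10.0 with 1 added to both, and from 6.2 in INPUT to 50.8 in IP, a ratio of 7.2 on the same scale. Its ratio to BO was 2.67. It held 45.0% of the subfamily's summed IP means in the table of IP and TOTAL. The summed MLT1H1 loci had an IP ratio of 1.61 to TOTAL, 1.8 to INPUT and 1.08 to BO. Without MLT1H1_16, also left out for its high ratio, they were 0.951, 1.11 and 0.728. MLT1F2_1537 had 25.0 in IP and 3.0 in TOTAL, and 19.1 in IP and 3.8 in BO. MLT1B_4031 had 22.8 in IP and 3.1 in TOTAL, but 17.4 in IP and 14.2 in BO. Other copies named for their level were MLT1A0_6088, with 49.1 in IP and 28.7 in TOTAL, and MLT1D_303, with 40.2 and 11.7. MLT1G_635 had 23.6 in IP and 5.3 in BO.

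Among copies lower in IP, MLT1B_5946 had the highest level, and it was the most abundant MLT locus in BO, INPUT and TOTAL. Its mean was 224.7 in BO and 23.2 in IP, 166.3 in INPUT and 30.5 in IP, and 114.4 in TOTAL and 30.1 in IP. The ratio of IP was 0.107 to BO, 0.188 to INPUT and 0.27 to TOTAL. It held 25.8% of the BO sum of the 1438 MLT1B loci, although the MLT1B subfamily passed no test. MLT1A0_7344 had 51.3 in BO and 2.8 in IP, MLT1A1_978 had 38.8 and 2.0, and MLT1K_405 had 49.0 and 4.4. These 3 had INPUT means of 13.4, 10.2 and 10.4, beside IP means of 3.7, 2.6 and 5.8 on the scale of that comparison. Against TOTAL, MLT1B_9277 had 5.4 in IP and 17.9 in TOTAL, MLT1A0_9084 had 9.1 and 22.3, and MLT1L_1419 had 6.5 and 14.9. MLT1N2_109, named for its level, had 26.1 in IP and 47.6 in TOTAL.

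**Figure D4:**
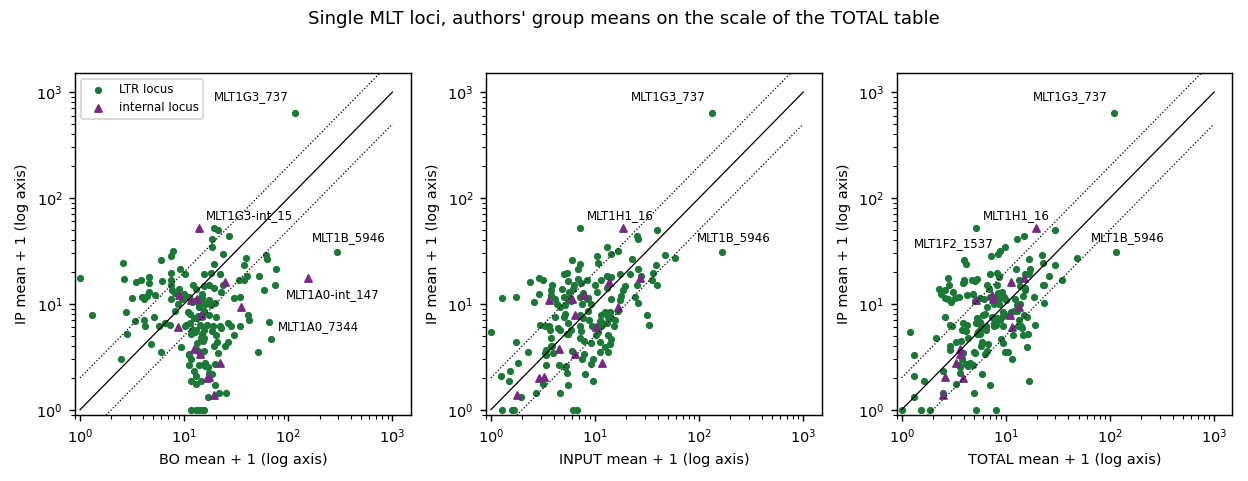
Authors' group means plus 1 of the 178 MLT loci that reach 10 in any group, IP against BO, INPUT and TOTAL on log axes, with BO and INPUT tables rescaled so that their IP means equal those of the TOTAL table (factors 1.3062 and 0.9964). The solid line marks equal means and dotted lines 2-fold differences; MLT1G3_737 lies above the upper line and MLT1B_5946 below the lower line in all 3 panels.

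Locus and subfamily values did not always move together. Locus means of a subfamily summed to a median of 0.353 of its subfamily value in TOTAL over 782 subfamilies, and the 2 kinds of table were scaled separately, so the proportion can be compared only between subfamilies. It was 0.097 for MLT1D-int and 0.099 for MLT1K, lower than in all but 2.6% and 2.7% of subfamilies, and 0.078 for MLT1F2-int. The 27 MLT1D-int loci summed to 50.9 in BO and 23.0 in IP, a ratio of 0.462 with 1 added to both, where the subfamily ratio of means was 0.188. Against TOTAL the same loci summed to 16.9 in TOTAL and 30.0 in IP, a ratio of 1.73 with 1 added to both, opposite in direction to the subfamily. MLT1G1 loci summed to 130.7 in BO and 81.9 in IP, a ratio of 0.629, where the subfamily ratio was 1.8. Summed over all 781935 repeat loci of that table, without the added 1, the ratio of IP to BO was 0.696. In MLT1A0-int both moved down, from 167.6 to 44.3 for the loci, and a single copy, MLT1A0-int_147, held 70.0% of the BO sum. That copy was picked after its values were seen. The cause of these differences was not tested.

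The 10 members below the filter were all internal parts, with 12-library means of at most 8.71. No library held more than 19 reads of any of them. MLT1E3-int, MLT1K-int and MLT1E1-int had no read in any BO library, where a count of 0 allows up to 3 reads per library. MLT1E1-int had 2 reads in a single TOTAL library and none elsewhere. Fitted without the filter, 1 of them was called, in 1 of the 5 comparisons. MLT1E-int had 8.73, 5.20 and 9.62 in BO against 2.82, 0 and 2.27 in INPUT (log2 fold change 1.89, SE 0.54, adjusted p = 0.0244 by limma), on 0 to 14 reads per library. The other 9 passed no test without the filter.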

How the data were processed

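Reads of 12 rRNA-depleted libraries were not realigned. The authors aligned them with STAR (v2.6.0c) to the mm10 genome, settled multiply mapped reads with Telescope, collapsed counts to subfamilies and scaled them with EBSeq, and the deposited signal per library is this normalized count. In each library 100% of values were whole multiples of a step within 0.1 read, so whole reads were recovered. The deposited signal for loci is the authors' mean per group from DESeq2 v1.24.0, normalized separately per table. The authors' fold change, standard error, Wald statistic, p-value, adjusted p and overall mean columns were not used.

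Values were tested as log2(value + 1) with limma 3.58.1 (trend) in R 4.3.3, in 1 fit of 4 groups without a block, over subfamilies with a mean of at least 10, with Benjamini-Hochberg adjustment over all 1180. On simulated counts with 200 of 1180 subfamilies changed between IP and BO, 93.2% of 2-fold and 100% of 4-fold changes were called, with 8 unchanged ones. The simulation gave all subfamilies the same dispersion and independent libraries, so these rates do not hold for members with few reads. In IP against BO, MLT1E2-int (log2 -1.10, SE 0.42) and MLT1G1-int (log2 -1.06, SE 0.54) were not called (adjusted p = 0.0622 and 0.15 by limma). p-values measure only the spread between libraries, whose replicates the labels call biological. As a count test on recovered reads, edgeR 4.0.16 called 14, 8, 8, 1 and 10 of 46 members in IP against BO, INPUT and TOTAL, INPUT against TOTAL and BO against INPUT.

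INPUT was fractionated from TOTAL extracts, and same-numbered libraries of both deviated together (correlations of deviations from group means 0.629, 0.339 and 0.321). Alternatives were other pseudocounts, filters and scalings, compared groups only, a replicate block, and each library left out. Members and lists were chosen with earlier results of these data known. Named subfamilies are the 8 most abundant and, per comparison, up to 4 with the largest rise and 4 with the largest fall among those called. Named loci are the 8 highest in TOTAL and IP, and the 4 highest and 4 lowest ratios to BO and to TOTAL. Positions, host genes and sequences of loci were not analysed here.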

Additional observations from a re-analysis of the deposited data

How the results depend on the processing

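Of 39 calls of single MLT subfamilies, 26 kept direction and an adjusted p under 0.05 in every alternative run for them other than library totals, and 12 also with library totals. The filter at a mean of at least 100 left 34 of the 39 and could not be run for MLT1-int, MLT1E2-int and MLT1G3-int. These 12 included MLT1G3 in IP against BO, INPUT and TOTAL, MLT1D-int in IP against BO and BO against INPUT, and MLT1H1 in IP against INPUT and TOTAL. Library totals kept 16 of the 39, lost 15 in the same direction, 7 of them with a larger fold change, and reversed 8: MLT1E1A (0.12), MLT1F2-int (0.018) and MLT1G (0.12) in IP against BO, MLT1A1 (0.29) and MLT1K (0.21) against INPUT, and MLT1A1 (1.32), MLT1D-int (0.78) and MLT1E (0.94) against TOTAL, as log2 fold changes.

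With library totals, members called numbered 5 (IP against BO), 3 (IP against INPUT), 45 (IP against TOTAL), 37 (INPUT against TOTAL) and 2 (BO against INPUT). In the same order the members' median log2 fold changes were 0.44, 0.55, 1.53, 1.03 and 0.073, and those of all subfamilies 0.36, 0.47, 1.49, 1.03 and 0.081. The library totals include 7SL and rRNA reads, and the 7SL share was 38.2% to 51.6% in TOTAL and 1.16% to 1.63% in IP. The part of these reads in the shifts and reversals was not tested. The members' median for BO against INPUT was -0.021 with the median of ratios and -0.051 with edgeR. A fit of the compared groups only called 5 members in IP against TOTAL. Leaving out each library in turn gave 11 to 16 calls in IP against BO, 5 to 8 against INPUT (5 without INPUT replicate 3, IP replicate 2 or IP replicate 3), 4 to 7 against TOTAL (4 without TOTAL replicate 3 or IP replicate 2), 0 to 1 in INPUT against TOTAL and 8 to 11 in BO against INPUT, where the median ran from -0.018 to 0.103. Without BO replicate 3, 13 members were called in IP against BO and 9 in BO against INPUT.

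With the replicate block, members called numbered 15 (IP against BO), 10 (IP against INPUT), 7 (IP against TOTAL), 1 (INPUT against TOTAL) and 9 (BO against INPUT), and of the 39 calls the block lost MLT1E1A in IP against TOTAL (adjusted p = 0.0525 by limma). Between other groups 5 of 15 correlations of same-numbered libraries were over 0.1, from -0.142 to 0.558, and for no such pair of groups were all 3 over 0.1. INPUT and BO had 0.295, 0.062 and 0.558. Over all groups, 18 of 36 comparisons of a library with another group gave the highest correlation with its own number.

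As medians over subfamilies, the log2 ratio difference of MLT to other MaLR was 0.071 (IP against TOTAL) and 0.028 (INPUT against TOTAL), that of internal parts to LTRs 0.32 (IP against INPUT) and -0.021 (INPUT against TOTAL), and that of MLT to MIR -0.13 (IP against BO) and -0.085 (IP against TOTAL), each opposite to the ratio of sums. With each library left out, IP against TOTAL ran from -0.023 to 0.025 for MLT to other MaLR and from -0.05 to 0.087 for internal parts to LTRs.

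MLT loci past 2-fold numbered 35, 25 and 21 against BO, INPUT and TOTAL. With a mean of at least 2 they numbered 313 of 640, 271 of 688 and 261 of 695. Of these, 85, 159 and 171 were higher in IP and 228, 112 and 90 lower. Over all repeat loci 14.0%, 18.4% and 17.4% were higher and 40.3%, 28.9% and 23.5% lower. With a mean of at least 50 they numbered 3 of 3, 2 of 2 and 2 of 2, with 1, 1 and 1 higher and 2, 1 and 1 lower. Over all repeat loci 20.6%, 25.2% and 29.9% were higher and 52.2%, 26.4% and 23.5% lower. With a ratio of 4 they numbered 16, 6 and 4, with 2, 3 and 4 higher and 14, 3 and 0 lower. Over all repeat loci 6.48%, 7.27% and 8.68% were higher and 23.5%, 10.5% and 9.15% lower. With a pseudocount of 10 they numbered 11 against INPUT and 12 against TOTAL, with 7 and 11 higher and 4 and 1 lower. Over all repeat loci 13.0% and 14.6% were higher and 17.5% and 13.8% lower. Leaving out MLT1G3_737 or MLT1H1_16 was chosen after seeing the data, and the latter turned the summed MLT1H1 ratio of IP below 1 to TOTAL (0.951) and BO (0.728). MST ratios and the genomic context of loci could not be run. The cause of these changes was not tested. Depth limits the 10 internal parts below the filter, with at most 19 reads in any library.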
